A study of Mus musculus with 10 samples.

Results

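The genes described here encode the proteins of the cytosolic ribosome, and the data are the ATAC-seq peaks that lie at them. ATAC-seq maps open chromatin by letting the Tn5 transposase insert sequencing adapters where DNA is accessible. A peak was taken as a member where its nearest protein-coding gene body, within 5 kb, had a symbol made of Rpl or Rps, a number and optional letters, leaving out the Rps6k kinases and names marked as pseudogenes. This gave 81 peaks in 69 of the 80 genes that match the name rule, out of 36251 peaks analysed. The rule uses position and name only, and no value of any library. The set was examined as a constitutive one, to ask how far the accessibility of a gene class that every cell uses stayed level across the groups of the study.

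Innate lymphoid cells (ILCs), tissue lymphocytes without rearranged antigen receptors, were sorted from the lamina propria of the small intestine of C57BL/6 mice. All 4 groups, controls included, carried Id2creERT2+, a tamoxifen-inducible Cre recombinase at the ILC gene Id2, with the red fluorescent reporter tdRFP+, and all were fed tamoxifen for several weeks. Control (n = 3) carried nothing else; RORgt-KO (n = 2) added the loxP-flanked alleles that give all 3 knockout groups the first part of their name; RORgt-Tbet-KO (n = 2) added to these Tbx21f/f, at the gene that encodes T-bet; and RORgt-RORa-KO (n = 3) added to them Roraf/f. The replicates were biological, each made from a single intestine or from several pooled ones, and neither the age and sex of the mice nor the sort gate or the floxed exons are stated in the sources at hand. Deletion is limited to cells in which the Id2 locus drives Cre.

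The eukaryotic ribosome is built from a small 40S and a large 60S subunit, each a scaffold of ribosomal RNA covered by small basic proteins named Rps and Rpl. Their genes are scattered over the genome, are transcribed by RNA polymerase II from strong promoters, and have to deliver their products in matched amounts. Many of the mRNAs begin with a C followed by a run of pyrimidines, the 5-prime terminal oligopyrimidine (TOP) motif, through which mTORC1 signalling and the RNA-binding protein LARP1 control translation, so that much of their regulation falls after transcription.

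The libraries held 2271585 to 5047436 reads in peaks, and the median member peak held 56 to 133 reads per library. Values are the authors' log2 scaled reads per peak, so that a difference of 1 is a 2-fold change. No member was empty in any library. The peaks at Tbx21 and Rora do not test the deletions, since the floxed exons are not given and none of these peaks was called lower. Peaks were taken here by the same rule, with the gene as the nearest within 5 kb. Of 2 peaks at Tbx21 0 were lower and 0, 1 and 1 higher than Control in the RORgt, RORgt-Tbet and RORgt-RORa knockouts. Of 14 at Rora 0 were lower and 0, 3 and 3 higher. The ILC marker genes Id2, Il7r, Gata3, Thy1, Kit and Il2rg all had peaks, and some of these differed from Control. A peak at Il7r was lower by 0.99 on the log2 scale in RORgt-KO (limma adjusted p = 0.00995) and by 0.89 in RORgt-RORa-KO (0.00381). A peak at Kit was higher by 0.79 in RORgt-Tbet-KO (limma adjusted p = 0.00162). Both peaks were named for a small p in the F test and do not stand for their list. It held 27 peaks at 7 genes, including a gene not reported here. Of these peaks, 3, 9 and 2 were called higher and 2, 1 and 5 lower than Control in the RORgt, RORgt-Tbet and RORgt-RORa knockouts. The shares called were 18.5%, 37% and 25.9%, against 12.3%, 22.6% and 31.2% of all peaks. The summed linear level of the ILC list was 4703 to 5172 in Control and 5994 to 6111 in RORgt-Tbet-KO. It was 4761 to 4881 in RORgt-KO and 4404 to 5567 in RORgt-RORa-KO. Markers of other cells were also measured, and their summed level moved between the groups. For T cells, 5 of 8 marker genes had a peak, and Cd3g, Cd8a and Cd8b1 had none. The linear sum was 366 to 410 in Control, 383 to 407 in RORgt-KO, 460.2 to 532 in RORgt-Tbet-KO and 536 to 554 in RORgt-RORa-KO. Of the 8 peaks, 1, 3 and 4 were called higher than Control and 1, 2 and 2 lower in the knockouts, in that order. A Cd3e peak was higher by 1.06, 1.85 and 2.07, while a Cd5 peak had differences of -2.39, -2.95 and -2.07. For B cells, 3 of 7 had one, at 1041 to 1112 in Control against 565 to 825 in the knockouts; Cd79a, Cd79b and Ms4a1 were among those without one. Epithelial markers (4 of 7; Krt18, Krt20 and Vil1 without a peak) stood at 382 to 437 in Control and 448 to 612 in the knockouts, stromal and endothelial markers (3 of 7; Cdh5, Col1a1, Col3a1 and Kdr without a peak) at 373 to 452 and 497 to 660.4, and myeloid markers (2 of 6; Adgre1, Csf1r, Csf3r and Lyz2 without a peak) at 109 to 142 and 98.8 to 200.9. Of the 6 epithelial peaks, 0, 1 and 2 were called higher and 1, 0 and 1 lower than Control, in the same order of knockouts. A peak at Krt8 had differences of -0.85, 0.23 (limma adjusted p = 0.543) and -2.00, so the epithelial sum does not stand for each peak. The part of these shifts in the results on ribosomal protein genes was not tested.

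Of the 81 peaks, 34 lay at 28 genes of the 40S subunit and 47 at 41 genes of the 60S subunit, on 19 chromosomes. Most were promoter-sized and sat at the end of the gene. Within 1 kb of a gene end were 67 members at 63 genes, or 82.7%, against 29.8% of all peaks; 10 lay deeper inside a gene and 4 lay outside it. The median member was 727 bp long and the median of all peaks 480 bp. A single peak was found at 57 genes and a pair of peaks at 12. The members farthest from their gene were at Rpl21 (2935 bp), Rpl12 (2730 bp) and Rpl14 (2431 bp). Among the nearest peaks beyond the 5 kb limit, at 5147 bp from Rpl37a the group means were 5.19, 4.79, 4.80 and 4.57 in Control and the RORgt, RORgt-Tbet and RORgt-RORa knockouts, and at 6821 bp from Rpl29 they were 4.38, 4.55, 4.22 and 4.21.

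The remaining 11 genes had no member. No peak lay within 5 kb of Rpl10l, Rpl32l, Rpl37rt and Rps27rt, whose names mark them as like-copies or retrogenes of other members. For 7 genes the peak was nearer to another gene: Rpl36al (Mgat2), Rpl3l (Msrb1), Rpl4 (Zwilch and Snapc5), Rpl7 (Rdh10), Rpl7a (Med22 and Surf2), Rps25 (Trappc4) and Rps28 (Kank3 and Ndufa7). In all, 27 peaks within 5 kb of a ribosomal protein gene went to a neighbour, and 9 members touched a second gene body at the same distance. RefSeq lists 309 mouse pseudogenes named Rpl or Rps, ribosomal protein genes being known for their intronless processed copies. Reads that fall in exons can come from such copies, and how the authors treated reads with several matches is not stated in the sources at hand.

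RefSeq promoter windows on GRCm38.p6, from 250 bases before to 50 after the annotated start, were found for 51 of the 69 genes. These genes had 62 windows, and 1 was kept per gene, that whose start lay nearest the centre of its peak. The closeness of start and peak is therefore partly set by this choice. The start lay inside a member peak in 49 of the 51, and the peak centres ranged from -318 to 328.5 bp relative to it, with a median 40 bp downstream, as the plot of peak spans shows. The exceptions were Rpl18 and Rpl39l. Among the 14 members more than 1 kb from a gene end, 4 (Rpl22, Rps27l, Rpl19 and Rps2) held the kept start all the same. This is possible since gene bodies were taken at their full annotated extent. Of the others, 8 did not hold the kept start of their gene, and 2 had no window.

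**Figure D1:**
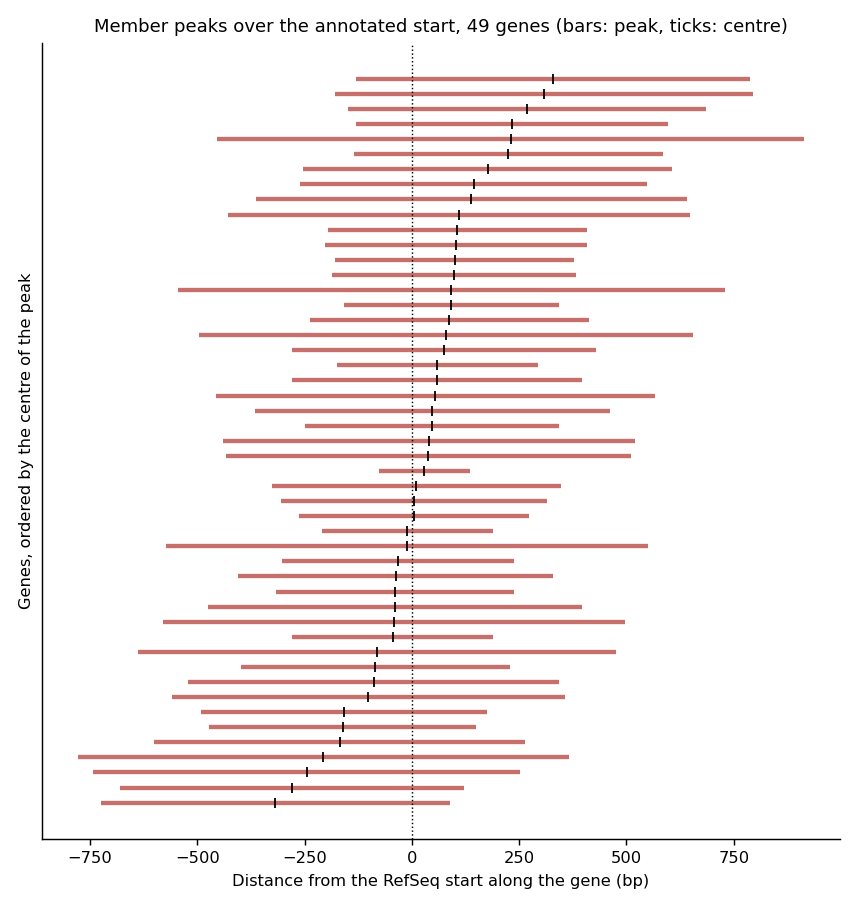
Span of the member peak (bar) and its centre (tick) relative to the annotated RefSeq start, in bp along the gene, for the 49 genes whose start lies inside a member peak. Where a gene had several starts, the one nearest the peak centre was used. Every bar crosses 0, and the centres run from -318 to 328.5 bp.

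The stretch from 80 bases before to 15 after the start is printed below, 5′ to 3′ on the gene's own strand, for the gene with the highest peak (Rpl37), the gene whose second peak was the lowest at a gene end (Rps15), the 11 genes whose gene-end peak passed a threshold below, and Rps6, chosen after the windows were seen because it carries both the palindrome and the pyrimidine run. Capitals mark a searched motif on either strand, and a run of at least 5 pyrimidines that begins with C within 5 bases of the start.
Rpl37, chr15:5116533-5116627, plus strand: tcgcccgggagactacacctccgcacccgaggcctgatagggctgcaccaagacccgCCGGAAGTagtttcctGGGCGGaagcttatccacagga
Rps15, chr10:80292351-80292445, plus strand: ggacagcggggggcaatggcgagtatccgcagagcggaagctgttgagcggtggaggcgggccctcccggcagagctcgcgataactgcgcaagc
Rps6, chr4:86857353-86857447, minus strand: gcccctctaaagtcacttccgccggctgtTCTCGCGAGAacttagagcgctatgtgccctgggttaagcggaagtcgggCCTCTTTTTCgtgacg
Rpl37a, chr1:72711180-72711274, plus strand: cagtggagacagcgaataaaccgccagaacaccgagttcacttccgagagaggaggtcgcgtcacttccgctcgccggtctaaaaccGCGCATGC
Rpl15, chr14:18270972-18271066, minus strand: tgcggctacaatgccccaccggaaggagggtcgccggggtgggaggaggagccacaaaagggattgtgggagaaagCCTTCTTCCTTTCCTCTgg
Rpl31, chr1:39367771-39367865, plus strand: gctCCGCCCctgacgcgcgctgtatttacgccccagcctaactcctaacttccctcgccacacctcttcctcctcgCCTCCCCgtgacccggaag
Rpl13a, chr7:45128731-45128825, minus strand: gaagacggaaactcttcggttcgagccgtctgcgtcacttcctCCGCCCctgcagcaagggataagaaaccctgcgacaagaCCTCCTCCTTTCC
Rpl13, chr8:123102270-123102364, plus strand: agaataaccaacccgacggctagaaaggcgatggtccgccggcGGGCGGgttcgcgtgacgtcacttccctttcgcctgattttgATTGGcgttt
Rpl11, chr4:136053379-136053473, minus strand: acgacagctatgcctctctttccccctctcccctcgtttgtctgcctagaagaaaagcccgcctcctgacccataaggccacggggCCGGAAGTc
Rpl27, chr11:101442165-101442259, plus strand: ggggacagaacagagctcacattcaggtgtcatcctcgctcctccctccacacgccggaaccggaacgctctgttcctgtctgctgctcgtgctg
Rpl6, chr5:121204421-121204515, plus strand: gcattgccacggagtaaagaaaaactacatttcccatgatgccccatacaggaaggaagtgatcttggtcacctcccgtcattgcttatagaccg
Rps3, chr7:99483695-99483789, minus strand: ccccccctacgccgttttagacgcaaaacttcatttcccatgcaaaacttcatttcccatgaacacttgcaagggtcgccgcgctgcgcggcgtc
Rps27, chr3:90213634-90213728, minus strand: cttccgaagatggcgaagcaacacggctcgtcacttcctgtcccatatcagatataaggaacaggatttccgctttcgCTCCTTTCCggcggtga
Rps18, chr17:33955651-33955745, minus strand: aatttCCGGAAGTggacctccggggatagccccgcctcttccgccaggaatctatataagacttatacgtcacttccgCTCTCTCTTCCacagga

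In these sequences a pyrimidine run beginning with C stands at the start of Rpl15, Rps27, Rps18, Rpl31, Rpl13a and Rps6, and no such run was found at the annotated start of the other genes. Over all 51 windows, a run of at least 5 pyrimidines covered the start in 31.4%, against 10.1% of 32851 windows of all genes and 9.38% of the 11690 windows under a peak. With the definition used for the capitals, chosen after the data were seen, the shares were 37.3%, 13.4% and 15%. That definition is looser on position and stricter on the first base, so Rpl34 and Rps9 meet the first definition and not this one. The TOP motif is defined from the cap site of the mRNA, which the annotated start may miss, and no match says only that the run is not in this window.

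Of the 7 motifs searched on both strands, the palindromic core TCTCGCGA was in 15.7% of the ribosomal protein windows, 0.995% of all windows and 2.5% of those under a peak. The ETS family sequence CCGGAAGT was in 17.6%, 3.89% and 9.1%; the sequences printed for Rpl37, Rpl11 and Rps18 hold it. The other 5 had shares near or below those of windows under a peak: GGGCGG (the GC box) in 58.8%, 35.7% and 67.1%, CCAAT in 33.3%, 37.4% and 38.5%, GCATGCGC (NRF1 core) in 5.88%, 2.71% and 5.77%, TATAAA in 5.88%, 13.6% and 5.89%, and CAAGATGGC (YY1) in 1.96%, 1.24% and 2.57%. No searched motif contains another, and 10 of the 51 windows held none of the 7. As above, the ribosomal protein windows are 1 per gene, while the other sets keep every window. A match is a description of the letters and not of binding.

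The members were ordinary gene-end peaks in height. Their median log2 level per library at gene ends was 6.71 to 6.98, below the 6.91 to 7.12 of all 10785 gene-end peaks. Divided by peak length, the medians were 7.32 and 7.33 on the log2 scale per kb. Of the 67 gene-end members 32 lay above the median of gene-end peaks, 6 in the top 10% and 0 in the lowest 10%. Among the 6 was a 21 bp peak at Rps15, at 9.28 per kb. Its mean before division, 3.70, was the lowest of all members, so its rank follows from its short length. The members together held 0.259% to 0.293% of the reads in peaks of a library, and they are 0.223% of the peaks.

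The highest member was the peak of Rpl37, a 60S protein with a zinc finger (chr15:5116041-5117164), at a mean of 9.19. Its values were 9.44, 9.49 and 9.08 in the Control libraries, 9.19 and 9.32 for RORgt-KO, 9.31 and 9.13 for RORgt-Tbet-KO, then 8.87, 8.95 and 9.12 for RORgt-RORa-KO. Among the next were Rpl15 (8.96), Rpl30 (8.96) and Rps27a (8.64), the last made as a fusion with ubiquitin. Per kb, which allows levels to be compared between peaks of different length, Rpl37 stood at 9.02, Rpl30 at 8.88, Rpl15 at 8.85 and Rps27a at 8.58. Among the lowest were a 21 bp peak at the end of Rps15 (chr10:80292776-80292797; mean 3.70), a 134 bp peak inside the X-linked Rps4x (3.92), the only peak of Rpl6 (4.73) and a peak inside Rps15a (5.06). Apart from Rpl6, these are second peaks of genes whose other peak was higher, at 5.95 for Rps15, 6.32 for Rps4x and 6.73 for Rps15a. The lowest member values of a library rest on 3 to 14 reads.

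Rps6, whose protein is phosphorylated by the S6 kinases downstream of mTORC1 and whose promoter is printed above, had a gene-end peak (chr4:86856891-86858006) of ordinary height. Its values were 7.45, 7.29 and 7.50 in the Control libraries, 7.78 and 7.56 for RORgt-KO, 7.72 and 7.37 for RORgt-Tbet-KO, then 7.64, 7.59 and 7.78 for RORgt-RORa-KO. RORgt-KO and RORgt-RORa-KO lay wholly above Control and RORgt-Tbet-KO overlapped it, and the peak held no call.

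In the 12 genes with a pair of peaks, the gap between them ran from 36 bp to 5224 bp, the widest being that at Rpl14. The means of the pair were nearly equal at Rpl14 (6.23 and 6.24), and differed most at Rps4x (3.92 and 6.32), Rps12 (5.53 and 7.83), Rps15 (5.95 and 3.70) and Rpl10 (7.41 and 5.40). Rpl10 sits where the subunits meet the tRNAs, and its peaks lay 297 bp apart.

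Across the 10 libraries the set as a whole moved little. The median of the 81 deviations from each peak's own mean lay between -0.10 and 0.11 in every library, with Control replicate 2 and RORgt-RORa-KO replicate 2 lowest and RORgt-RORa-KO replicate 3 highest, so that libraries of 1 group stood at both ends. The standard deviation of a peak over the 10 libraries had a median of 0.284 in the members, 0.282 in gene-end peaks and 0.424 in all peaks. The range of the 4 group means was under 0.5 in 56 of 81 members (69.1%), in 59% of gene-end peaks and in 31.6% of all peaks. Of the 67 gene-end members, 74.6% had a range under 0.5. These are descriptions of the spread, with no test between the groups of peaks.

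**Figure D2:**
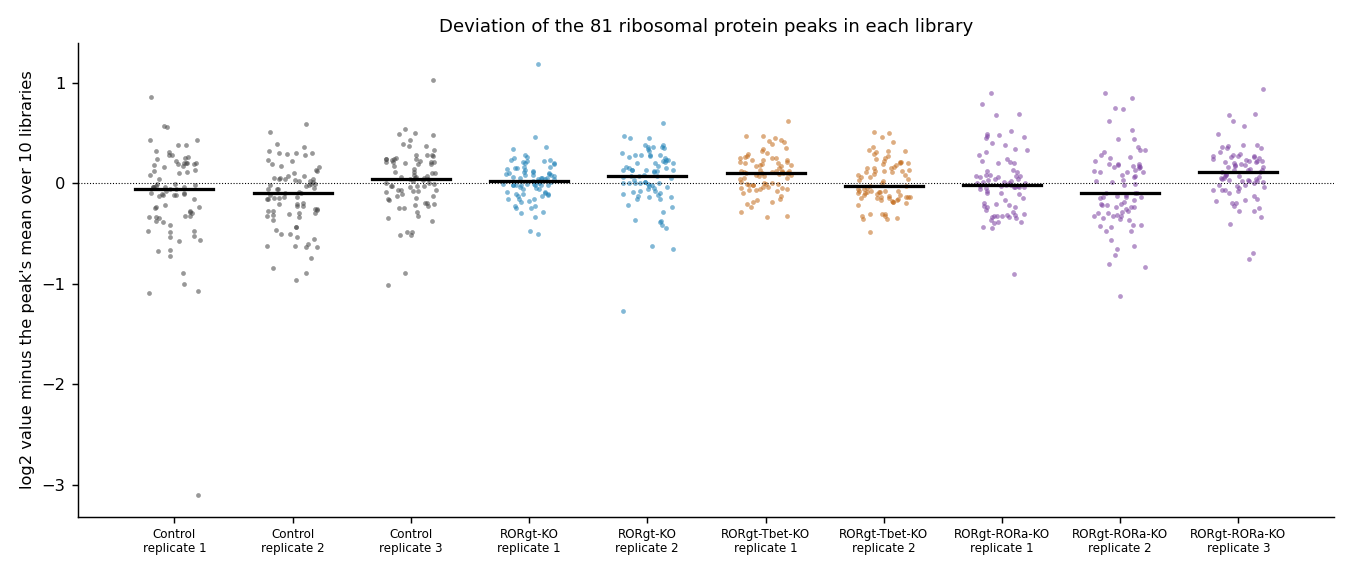
Log2 value of each of the 81 ribosomal protein peaks minus its mean over the 10 libraries (points, coloured by group), with the median per library (bar). The medians lie between -0.10 and 0.11; the lowest point, in Control replicate 1, is the peak inside Rps15a.

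The 5 members with the smallest range of group means were Rpl34 (0.10), Rps27a (0.10), Rpl12 (0.11), Rps16 (0.11) and a distal peak of Rpl14 (0.12). Rps27a was also the least variable over single libraries, with a standard deviation of 0.106. Its values were 8.84, 8.66 and 8.51 in the Control libraries, 8.62 and 8.65 for RORgt-KO, 8.64 and 8.50 for RORgt-Tbet-KO, then 8.54, 8.75 and 8.68 for RORgt-RORa-KO. For Rpl34, a 60S protein, they were 8.21, 8.19 and 8.36 in the Control libraries, 8.28 and 8.19 for RORgt-KO, 8.46 and 8.21 for RORgt-Tbet-KO, then 8.30, 8.15 and 8.50 for RORgt-RORa-KO. In both genes all 4 groups overlapped. The largest ranges were those of Rps15a (2.12), Rpl21 (1.52), Rpl39l (1.26), Rpl6 (1.00) and Rpl13 (0.86), described below.

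A moderated F test over the 4 groups (limma, adjusted by Benjamini-Hochberg over all 36251 peaks, threshold 0.05) called 5 of 81 members, or 6.17%, against 30.7% of all peaks. Of all gene-end peaks 12.7% were called, and of the 67 members there 2 were (2.99%). In pairs, 2 members changed in RORgt-KO against Control (12.3% of all peaks), 5 in RORgt-Tbet-KO (22.6%) and 11 in RORgt-RORa-KO (31.2%). At gene ends the members called were 1, 4 and 8 of 67, against 3.1%, 12.2% and 14.9% of gene-end peaks. For RORgt-RORa-KO, 8 of 67 is 11.9%, close to the share of gene-end peaks. Between knockouts, 0 members were called in RORgt-Tbet-KO against RORgt-KO (1.14% of all peaks; 3 members at an unadjusted p under 0.05, and 0 with limma voom on recovered reads), 2 in RORgt-RORa-KO against RORgt-KO (1.47%) and 1 in RORgt-RORa-KO against RORgt-Tbet-KO (7.54%). The 3 comparisons with Control share their controls.

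**Figure D3:**
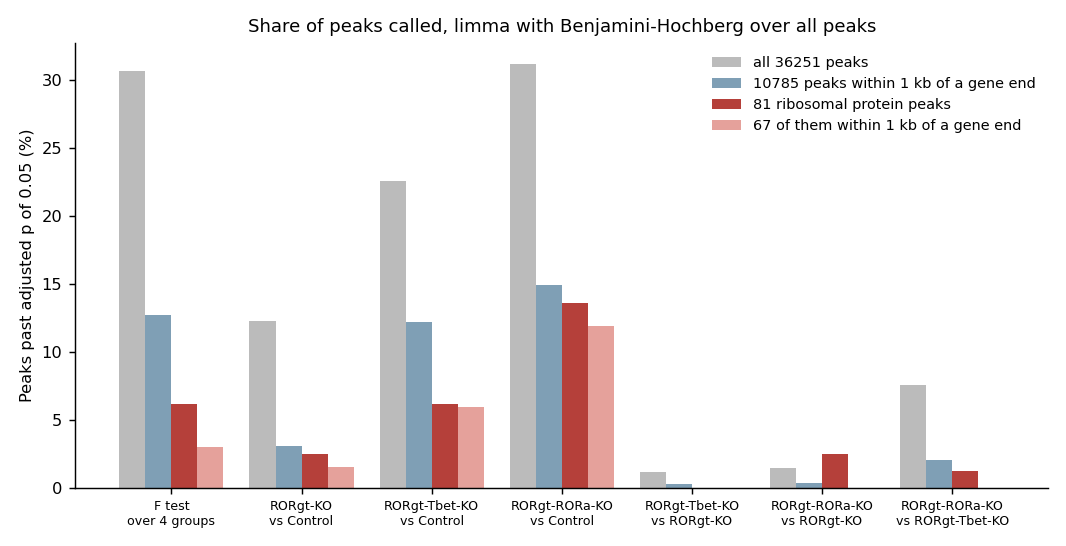
Share of peaks past an adjusted p of 0.05 in the F test and the 6 pairwise comparisons, for all 36251 peaks, the 10785 peaks within 1 kb of a gene end, the 81 ribosomal protein peaks and the 67 of these at a gene end. The member bars stand below those of all peaks in all comparisons except RORgt-RORa-KO against RORgt-KO, where 2 of 81 members passed.

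By direction, the members called against Control were 2 higher and 0 lower in RORgt-KO (all peaks 5.19% and 7.12%), 4 higher and 1 lower in RORgt-Tbet-KO (11.3% and 11.3%), and 8 higher and 3 lower in RORgt-RORa-KO (15.1% and 16.1%). With each library centred on its median over the member peaks themselves, the splits were 1 and 0, 2 and 1, and 4 and 3. The median difference of all 81 members was 0.08, 0.11 and 0.03 on the log2 scale in the 3 comparisons, and -0.0046, -0.04 and -0.03 in RORgt-Tbet-KO against RORgt-KO, RORgt-RORa-KO against RORgt-KO and RORgt-RORa-KO against RORgt-Tbet-KO. Over all peaks the 3 medians against Control were 0.02, 0.01 and 0.02.

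From the 5th to the 95th percentile, the member differences from Control ran from -0.26 to 0.50 in RORgt-KO, from -0.36 to 0.77 in RORgt-Tbet-KO and from -0.41 to 0.70 in RORgt-RORa-KO, while all peaks ran from -1.43 to 1.13, from -1.67 to 1.26 and from -1.84 to 1.50. Gene-end peaks ran from -0.51 to 0.61, from -0.74 to 0.70 and from -0.71 to 0.72. A peak that misses the threshold is not shown to be unchanged, so the 95% interval of each difference was also read. It lay wholly inside a 2-fold change in either direction for 64, 60 and 63 of 81 members against Control, or 79%, 74.1% and 77.8%; the shares of all peaks were 48.9%, 42.6% and 46.8%, and those of gene-end peaks 79%, 71.2% and 78.1%, close to the members. Between knockouts it did so for 65, 71 and 69 members in RORgt-Tbet-KO against RORgt-KO, RORgt-RORa-KO against RORgt-KO and RORgt-RORa-KO against RORgt-Tbet-KO (80.2%, 87.7% and 85.2%), against 48.1%, 54.7% and 51% of all peaks and 74.7%, 81.1% and 79.6% of gene-end peaks. The interval's width follows the reads in the peak, and members have more reads than the median peak.

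**Figure D4:**
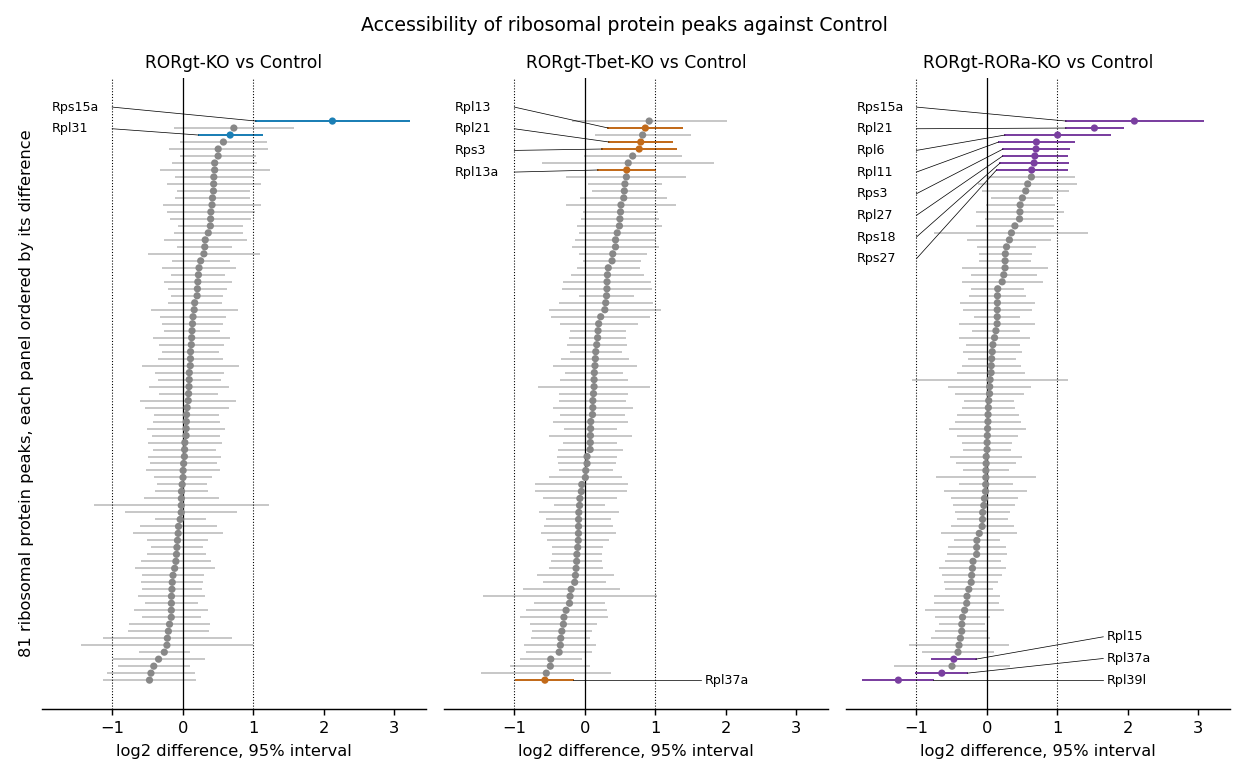
Log2 difference from Control (points) with its 95% interval (lines) for the 81 ribosomal protein peaks, ordered within each of 3 panels; coloured and named where the adjusted p is under 0.05, dotted lines at a 2-fold change. Most intervals cross 0, and those of 64, 60 and 63 peaks stay between the dotted lines in the RORgt, RORgt-Tbet and RORgt-RORa knockouts.

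The members were also read by subunit and by known role. Of 34 peaks of 40S genes, 1, 1 and 4 were higher against Control in the RORgt, RORgt-Tbet and RORgt-RORa knockouts and 0 were lower, with medians of 0.05, 0.03 and 0.04. Of 47 peaks of 60S genes, 1, 3 and 4 were higher and 0, 1 and 3 lower, with medians of 0.09, 0.12 and 0.02. Of all peaks, 12.3%, 22.6% and 31.2% were called in either direction in these comparisons. Of gene-end peaks 3.1%, 12.2% and 14.9% were called. Each subunit had a lower share called than all peaks, and a share near or below that of gene-end peaks. These shares are also the background for the smaller sets that follow. The difference between the subunits was not tested. The 5S ribonucleoprotein genes Rpl5 and Rpl11, whose proteins bind Mdm2 when ribosome assembly fails, had means of 7.29 and 6.23, and Rpl11 was higher in RORgt-RORa-KO. Of 16 genes known from the inherited red cell disorder Diamond-Blackfan anaemia, 15 had a member; of their 17 peaks, 3 were higher in RORgt-RORa-KO (Rps27, Rpl11 and Rpl27) and 1 lower (Rpl15), and 0 passed in the F test or the other 5 comparisons. At an unadjusted p under 0.05 there were 2 in the F test and 3, 1 and 1 in RORgt-Tbet-KO against Control, RORgt-Tbet-KO against RORgt-KO and RORgt-RORa-KO against RORgt-Tbet-KO; voom called 1 in the F test and 1 in RORgt-Tbet-KO against Control. The 6 peaks of the X-linked genes Rpl10, Rpl36a, Rpl39 and Rps4x held 0 calls with limma, 0 at an unadjusted p under 0.05 and 0 with voom on recovered reads. Of the tissue-restricted or divergent copies with a member, Rps27l (1 peak) held 0 calls and Rpl39l (a pair of peaks) is described below.

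In total 14 of 81 peaks, in 14 genes, passed in at least 1 test, 11 at a gene end and 3 elsewhere, and 55 genes had none. The F test alone called 30.7% of all peaks and 12.7% of gene-end peaks. The shares of these called in at least 1 test were not computed. The plot of called peaks shows every library. The 3 with the smallest p in the F test lay more than 1 kb from a gene end.

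**Figure D5:**
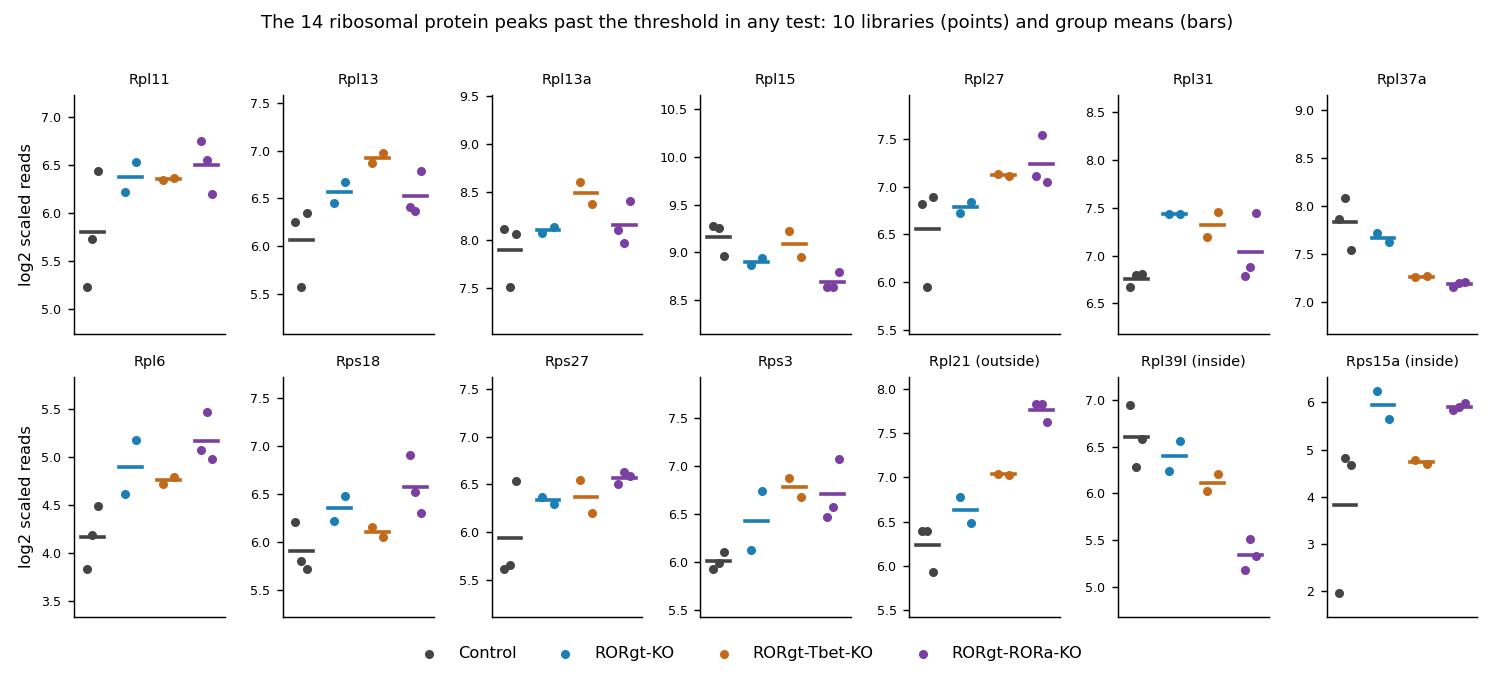
Log2 scaled reads in each of 10 libraries (points) and group means (bars) for the 14 ribosomal protein peaks past the threshold in any test, each panel with its own vertical axis. The first 11 panels are gene-end peaks; the last 3, at Rpl21, Rpl39l and Rps15a, are not, and show the widest ranges of group means.

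A peak 2935 bp outside Rpl21, a 60S protein (chr5:146829472-146829955), was the member with the smallest p. Its values were 6.40, 6.39 and 5.92 in the Control libraries, 6.78 and 6.48 for RORgt-KO, 7.04 and 7.02 for RORgt-Tbet-KO, then 7.83, 7.83 and 7.62 for RORgt-RORa-KO, from 38 to 220 reads. The RORgt-RORa-KO libraries lay above all others, RORgt-Tbet-KO came next and Control was lowest, with no overlap between any pair of groups. The difference from Control was 1.52 in RORgt-RORa-KO (SE 0.20, 2.88-fold, limma adjusted p = 7.89e-07) and 0.79 in RORgt-Tbet-KO (SE 0.22, 1.73-fold, adjusted p = 0.0096). RORgt-RORa-KO was also higher than RORgt-KO by 1.13 (SE 0.22, adjusted p = 0.00423) and than RORgt-Tbet-KO by 0.73 (SE 0.22, adjusted p = 0.0369). The gene-end peak of Rpl21 itself held no call. With each library left out in turn, the F test and the difference of RORgt-RORa-KO from Control kept their calls in 10 of 10 fits; that of RORgt-Tbet-KO was lost without either RORgt-Tbet-KO library (adjusted p = 0.0999 and 0.089). That from RORgt-KO was lost without RORgt-KO replicate 2 (0.238), and that from RORgt-Tbet-KO without RORgt-RORa-KO replicate 1 or 2 (0.119 and 0.0757) or RORgt-Tbet-KO replicate 1 or 2 (0.254 and 0.28).

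Inside Rpl39l, a copy of Rpl39 known from testis, a peak was lower in RORgt-RORa-KO (chr16:10172328-10173014, 1897 bp from a gene end). Its values were 6.94, 6.28 and 6.58 in the Control libraries, 6.24 and 6.56 for RORgt-KO, 6.02 and 6.20 for RORgt-Tbet-KO, then 5.19, 5.52 and 5.33 for RORgt-RORa-KO. All 3 RORgt-RORa-KO libraries lay below the other 7. The difference from Control was -1.26 (SE 0.24, 2.39-fold, limma adjusted p = 0.000202), and that from RORgt-KO was -1.05 (SE 0.27, adjusted p = 0.0427). The first held in 10 of 10 fits with a library left out. The second was lost without RORgt-KO replicate 1 or 2 (adjusted p = 0.124 and 0.668), RORgt-RORa-KO replicate 1 or 3 (0.127 and 0.0791) or RORgt-Tbet-KO replicate 1 or 2 (0.0722 and 0.0745). The other peak of Rpl39l, 729 bp away, was at 6.19, 6.35, 6.63 and 6.20 in the means of Control and the RORgt, RORgt-Tbet and RORgt-RORa knockouts and held no call.

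Inside Rps15a, a 40S protein, a low peak (chr7:118113587-118113969, 2178 bp from a gene end) had the widest range of group means. Its values were 1.96, 4.83 and 4.68 in the Control libraries, 6.24 and 5.65 for RORgt-KO, 4.77 and 4.70 for RORgt-Tbet-KO, then 5.84, 5.91 and 5.99 for RORgt-RORa-KO, from 3 to 71 reads. The lowest is Control replicate 1, with 3 reads. Both RORgt-KO and all RORgt-RORa-KO libraries lay above Control, and RORgt-Tbet-KO lay within it. The difference was 2.12 in RORgt-KO (SE 0.53, 4.36-fold, limma adjusted p = 0.00711) and 2.09 in RORgt-RORa-KO (SE 0.47, 4.26-fold, adjusted p = 0.00108). With each library left out these ranged from 1.19 to 2.63 and from 1.16 to 2.60, the lowest values being those without Control replicate 1. The RORgt-RORa-KO call held in 10 of 10 such fits, and the RORgt-KO call was lost without RORgt-KO replicate 1 (adjusted p = 0.15). The gene-end peak of Rps15a held no call.

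At gene ends the called differences lay between 1.38-fold and 2.00-fold, and each call was lost in at least 1 of the 10 fits with a library left out. Lower in the knockouts were Rpl37a and Rpl15. For Rpl37a, a 60S zinc finger protein (chr1:72710832-72711907), the values were 7.86, 8.08 and 7.53 in the Control libraries, 7.71 and 7.62 for RORgt-KO, 7.25 and 7.27 for RORgt-Tbet-KO, then 7.16, 7.19 and 7.21 for RORgt-RORa-KO. The 5 libraries of RORgt-Tbet-KO and RORgt-RORa-KO lay below all others, and RORgt-KO overlapped Control. The difference from Control was -0.57 in RORgt-Tbet-KO (SE 0.20, 1.48-fold, limma adjusted p = 0.0382) and -0.64 in RORgt-RORa-KO (SE 0.18, 1.56-fold, adjusted p = 0.00609). In the F test the adjusted p was 0.0172. Without Control replicate 1 or 2 the F test gave 0.0553 and 0.0831, and the call in RORgt-RORa-KO was lost without Control replicate 2, where the adjusted p lay just above 0.05. The call in RORgt-Tbet-KO was lost in 6 of 10 fits: without Control replicate 1 or 2 (0.0891 and 0.16), either RORgt-KO library (0.0519 and 0.0518) or either RORgt-Tbet-KO library (0.207 and 0.194).

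Rpl15, a large 60S protein, shares its peak with the neighbouring Nkiras1 (chr14:18270489-18271566). Its values were 9.28, 9.25 and 8.96 in the Control libraries, 8.87 and 8.94 for RORgt-KO, 9.23 and 8.95 for RORgt-Tbet-KO, then 8.64, 8.64 and 8.80 for RORgt-RORa-KO. RORgt-RORa-KO was lowest and did not overlap Control, with a difference of -0.47 (SE 0.15, 1.38-fold, limma adjusted p = 0.0185). The call was lost without Control replicate 1 or 2 (0.0868 and 0.0799) or RORgt-RORa-KO replicate 1 (0.0622).

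Higher in both double knockouts was Rps3, a 40S protein that lines the mRNA entry channel (chr7:99483300-99483911). Its values were 5.93, 5.99 and 6.10 in the Control libraries, 6.12 and 6.74 for RORgt-KO, 6.88 and 6.68 for RORgt-Tbet-KO, then 6.46, 6.57 and 7.07 for RORgt-RORa-KO. Control was lowest and did not overlap any knockout group. The difference was 0.77 in RORgt-Tbet-KO (SE 0.25, 1.71-fold, limma adjusted p = 0.0287) and 0.70 in RORgt-RORa-KO (SE 0.23, 1.62-fold, adjusted p = 0.0198). In RORgt-KO it was 0.42 (adjusted p = 0.327). The F test (0.0446) was lost in 6 of 10 fits with a library left out, without any Control library (0.134, 0.111 and 0.0627), RORgt-RORa-KO replicate 3 (0.0781) or either RORgt-Tbet-KO library (0.136 and 0.0873). The call in RORgt-Tbet-KO was lost without Control replicate 1 or 2 (0.0683 and 0.0596) or either RORgt-Tbet-KO library (0.242 and 0.111), and that in RORgt-RORa-KO without Control replicate 1 (0.0586) or RORgt-RORa-KO replicate 3 (0.127).

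In RORgt-KO alone of the 3 comparisons, Rpl31 passed, a 60S protein near the exit of the peptide tunnel (chr1:39367598-39368458). Its values were 6.68, 6.80 and 6.81 in the Control libraries, 7.43 and 7.43 for RORgt-KO, 7.19 and 7.45 for RORgt-Tbet-KO, then 6.79, 6.88 and 7.44 for RORgt-RORa-KO. Both RORgt-KO libraries lay above Control, as did both RORgt-Tbet-KO libraries, while RORgt-RORa-KO overlapped it. The difference was 0.67 in RORgt-KO (SE 0.22, 1.59-fold, limma adjusted p = 0.0413), 0.56 in RORgt-Tbet-KO (adjusted p = 0.0649) and 0.28 in RORgt-RORa-KO (adjusted p = 0.302). Neither difference between RORgt-KO and a double knockout passed. The call was lost without Control replicate 1 or 2 (0.112 and 0.0718), either RORgt-KO library (0.217 and 0.199) or either RORgt-Tbet-KO library (0.0608 and 0.0628).

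Only RORgt-RORa-KO passed against Control for Rps27, Rpl11, Rpl6, Rpl27 and Rps18, and only RORgt-Tbet-KO for Rpl13a and Rpl13; the contrasts between knockouts held no call for these 7 peaks, so that a difference between the knockouts is not shown. Rpl13a is known besides its place in the 60S subunit for silencing inflammatory mRNAs in myeloid cells. Its peak (chr7:45128657-45129469) stood at 8.11, 7.51 and 8.06 in the Control libraries, 8.07 and 8.13 for RORgt-KO, 8.61 and 8.37 for RORgt-Tbet-KO, then 8.10, 7.97 and 8.40 for RORgt-RORa-KO. The RORgt-Tbet-KO mean was highest and its libraries did not overlap Control, at a difference of 0.59 (SE 0.20, limma adjusted p = 0.03). For Rpl13 (chr8:123101829-123102693) the values were 6.26, 5.58 and 6.35 in the Control libraries, 6.45 and 6.67 for RORgt-KO, 6.87 and 6.97 for RORgt-Tbet-KO, then 6.42, 6.37 and 6.79 for RORgt-RORa-KO, with RORgt-Tbet-KO above Control by 0.86 (SE 0.26, 1.81-fold, adjusted p = 0.0159). In these libraries Control replicate 2 was the lowest of the 10 for both genes. The Rpl13a call was lost without Control replicate 2 (0.18) or either RORgt-Tbet-KO library (0.282 and 0.088), and the Rpl13 call without the same 3 libraries (0.093, 0.0974 and 0.152).

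Rpl27, a 60S protein (chr11:101442058-101442627), had values of 6.82, 5.96 and 6.89 in the Control libraries, 6.73 and 6.84 for RORgt-KO, 7.13 and 7.11 for RORgt-Tbet-KO, then 7.11, 7.53 and 7.05 for RORgt-RORa-KO. RORgt-RORa-KO did not overlap Control and was higher by 0.68 (SE 0.22, 1.60-fold, limma adjusted p = 0.0199); Control replicate 2 was again the lowest library. The call was lost without Control replicate 2 (0.197) or RORgt-RORa-KO replicate 2 (0.083). Rps18, at the head of the small subunit, shares its peak with Vps52 (chr17:33955476-33955944) and had values of 6.21, 5.80 and 5.72 in the Control libraries, 6.22 and 6.48 for RORgt-KO, 6.16 and 6.05 for RORgt-Tbet-KO, then 6.91, 6.52 and 6.30 for RORgt-RORa-KO. RORgt-RORa-KO lay above Control by 0.67 (SE 0.24, 1.59-fold, adjusted p = 0.0299). This was lost without Control replicate 2 or 3 (0.0837 and 0.0849) or RORgt-RORa-KO replicate 1 (0.169).

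Rpl6, the member with the lowest promoter peak among single-peak genes (chr5:121204424-121204636, 11 to 35 reads), had values of 3.83, 4.18 and 4.48 in the Control libraries, 4.61 and 5.17 for RORgt-KO, 4.72 and 4.79 for RORgt-Tbet-KO, then 5.07, 5.46 and 4.97 for RORgt-RORa-KO. All 7 knockout libraries lay above Control, with a difference of 1.00 in RORgt-RORa-KO (SE 0.37, 2.00-fold, limma adjusted p = 0.036). The call was lost without Control replicate 1 or 2 (0.115 and 0.0663), RORgt-RORa-KO replicate 1 or 2 (0.0632 and 0.112) or either RORgt-Tbet-KO library (0.0552 and 0.0554). Rpl11 (chr4:136052986-136053588) had values of 5.23, 5.73 and 6.43 in the Control libraries, 6.22 and 6.53 for RORgt-KO, 6.34 and 6.36 for RORgt-Tbet-KO, then 6.75, 6.55 and 6.20 for RORgt-RORa-KO. RORgt-RORa-KO was higher by 0.70 (SE 0.26, 1.63-fold, adjusted p = 0.0409), while Control replicate 3 lay within its range. The Rpl11 call held in 2 of 10 fits, without Control replicate 3 (lowest value, 0.00389) and without RORgt-RORa-KO replicate 3; without Control replicate 1 it was 0.271 and without the other 7 libraries it was 0.0501 to 0.169.

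Rps27, a 40S zinc finger protein whose peak also covers Rab13 (chr3:90213376-90213910), had values of 5.62, 5.66 and 6.53 in the Control libraries, 6.37 and 6.29 for RORgt-KO, 6.54 and 6.20 for RORgt-Tbet-KO, then 6.51, 6.63 and 6.58 for RORgt-RORa-KO. Control replicates 1 and 2 lay below all other libraries and replicate 3 lay with the knockouts. The difference in RORgt-RORa-KO was 0.63 (SE 0.24, 1.55-fold, limma adjusted p = 0.047). The call held in 1 of 10 fits, without Control replicate 3 (0.00397), and was 0.0582 to 0.2 without any 1 of the other 9 libraries.

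Ribosomal protein genes that the name rule does not reach were read beside the members: the stalk proteins Rplp0, Rplp1 and Rplp2, Rpsa (the laminin receptor protein of the 40S subunit), Fau (fused to a ubiquitin-like protein) and Rps3a1, which was added after the data were seen. Rplp2 had no peak. In the other 5 genes 0 of 5 peaks passed the limma F test or any contrast, and 1 had an unadjusted p under 0.05, in RORgt-RORa-KO against RORgt-KO. Rps3a1 had the highest of these means, at 8.01, 8.14, 7.99 and 7.68 in Control and the RORgt, RORgt-Tbet and RORgt-RORa knockouts, and a difference from Control of -0.32 in RORgt-RORa-KO (limma adjusted p = 0.146).

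Genes of the mitochondrial ribosome are made in the same cells but are regulated apart from the cytosolic set. Of 78 such genes 59 had a peak, and of 73 peaks 7 (9.59%, against 30.7% of all peaks) passed the F test; 1, 7 and 5 were higher and 1, 2 and 1 lower against Control in the RORgt, RORgt-Tbet and RORgt-RORa knockouts. The 3 with the smallest p were Mrps28, with log2 differences of -2.56, -2.86 and -3.27, Mrpl9, higher by 1.25, 1.18 and 1.15, and Mrpl1, at differences of 1.35 (adjusted p = 0.0654), 2.38 and 1.58. The peaks at Mrps28 and Mrpl9 belong to gene ends, and the Mrpl1 peak lay 11912 bp from one. Shares of the mitochondrial list called against Control were 2.74%, 12.3% and 8.22%, against 12.3%, 22.6% and 31.2% of all peaks.

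Ribosome assembly and RNA polymerase I genes had 81 peaks at 52 of 60 genes, of which 15 (18.5%) passed the F test; 5, 6 and 13 were higher and 3, 5 and 5 lower in the 3 comparisons with Control. A peak inside Riok1, a kinase of late 40S maturation, was higher by 3.54, 2.11 and 4.06; one in Rrp12 was higher by 0.98, 1.23 and 1.51; and one in Nol10 was lower, at differences of -2.05, -2.48 and -2.47. Each lay more than 1 kb from a gene end. The shares of assembly and polymerase I peaks called were 9.88%, 13.6% and 22.2%, against 12.3%, 22.6% and 31.2% of all peaks. In the F test 30.7% of all peaks passed. Of 50 peaks at 39 of 42 translation factor and other TOP genes, 3 (6%) passed the F test, with 0, 3 and 1 higher and 1, 2 and 3 lower. Eif3h, a subunit of initiation factor eIF3, was lower, at differences of -1.15, -1.43 and -1.52, at a peak 36342 bp from a gene end. Eif4e, the cap-binding factor, had differences of -0.96 (limma adjusted p = 0.176), -1.43 and -1.64. Shares called of the translation factor and TOP list were 2%, 10% and 8%, below those of all peaks in each comparison.

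Regulators of ribosome synthesis in the Myc and mTORC1 pathways had 43 peaks at 22 of 23 genes, of which 14 passed the F test, or 32.6% against 30.7% of all peaks; 3, 10 and 10 were higher and 1, 3 and 3 lower. The shares called were 9.3%, 30.2% and 30.2%, against 12.3%, 22.6% and 31.2% of all peaks, so that the counts in the F test and in RORgt-RORa-KO are near those of any peak. A peak in Max, the Myc partner, was higher by 0.84, 1.53 and 1.43, one in Mtor by 1.94, 2.14 and 2.46, and one at the end of Mycn was lower, at -1.01, -1.39 and -1.21. The median differences of the 43 peaks were 0.12, 0.30 and 0.11. Of these regulators' peaks 21 of 43 lay at a gene end, against 67 of 81 for the ribosomal protein genes, so that counts of calls are not for peaks of the same kind.

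Used as a scale, the members gave fewer calls over all peaks. With each library centred on its median over the 81 member peaks, an alternative added after the data were seen, the F test called 9790 peaks in place of 11142, and 9737 were called both ways. Against Control the calls were 3839 in place of 4463 in RORgt-KO, 7003 in place of 8189 in RORgt-Tbet-KO and 10354 in place of 11326 in RORgt-RORa-KO. The peaks called higher numbered 1277, 2963 and 4492, in place of 1883, 4093 and 5491. Nearly all of the fall in calls against Control was thus in peaks called higher.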

How the data were processed

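ATAC-seq libraries of sorted small-intestinal ILCs were analysed from 1 table of 36262 peaks by 10 libraries, with 0 columns of no sample. The submitters' processing notes name Trim Galore 0.62, Bowtie2 2.3.5.1, SAMtools, MACS2 and GRCm38. The deposited values are the authors' log2 scaled reads per peak; the origin of the scaling factor and the treatment of reads with several matches are not stated in the sources at hand. Every value came back as a whole read number within 0.01 reads once divided by what 1 read is worth, with an empty peak at 0.9 of that step. Libraries held 2271585 to 5047436 reads in peaks, and precision follows the reads per peak. Coordinates are those of the file, whose first base (0 or 1) is not stated. The 11 peaks on Y were left out.

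Peaks were given to the nearest protein-coding gene body of the RefSeq gene table. Differences were tested on the log2 values with limma 3.58.1 (R 4.3.3), using 1 model over the 4 groups and a trend of variance on mean, and p-values were adjusted by Benjamini-Hochberg over 36251 peaks. Every adjusted p in the text is from limma. The method was tested on simulated data. Python 3.11.15, pandas 2.3.3 and matplotlib 3.10.9 were used. Named peaks are those called in any test, and the 5 with the highest and lowest mean and the 5 with the smallest and largest range of group means; in other lists, up to 3 by F test. The members and lists were chosen with earlier results of these data known. Replicate numbers were not used to pair the libraries, since the labels do not say that a number marks a shared day or litter. The results of some genes are not reported here.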

Additional observations from a re-analysis of the deposited data

How the results depend on the processing

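Groups of 2 or 3 libraries and peaks of few reads limit what can be called, and no promoter call held with every library left out in turn. The counts given here are of ribosomal protein peaks called, beside 5 in the F test and 2, 5, 11, 0, 2 and 1 in the contrasts of the RORgt, RORgt-Tbet and RORgt-RORa knockouts with Control, RORgt-Tbet-KO against RORgt-KO, RORgt-RORa-KO against RORgt-KO and RORgt-RORa-KO against RORgt-Tbet-KO. Of 174 values over 25 alternative settings, 63 differed by more than 1.5 times from the reported count, or were 0 on 1 side alone. With 1 library left out, the counts ran from 3 to 9 in the F test, and in the contrasts, in the order above, from 0 to 3, 0 to 8, 4 to 13, 0 to 0, 0 to 2 and 0 to 2. Without Control replicate 2 they were 3 in the F test and 1, 1 and 4 against Control, and without Control replicate 3 they were 9, 3, 8 and 13. Without either RORgt-Tbet-KO library the count in RORgt-Tbet-KO against Control was 0, and without RORgt-KO replicate 1 that in RORgt-KO was 0.

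Without the mean-variance trend the F test called 2 and the contrasts 0, 2, 6, 0, 0 and 0. With library weights the F test called 13, RORgt-Tbet-KO against Control 13 (11 higher, 2 lower) and RORgt-RORa-KO against RORgt-Tbet-KO 4, while the comparison of RORgt-RORa-KO with Control had 8 higher and 5 lower. With voom on recovered reads the F test called 9 and the last 2 contrasts 1 and 2. With only the groups compared in the model, RORgt-RORa-KO against Control had 6 (4 higher, 2 lower) and the contrasts between knockouts 1, 1 and 2; the F test has no such version. Centring on all peaks left 0 in RORgt-RORa-KO against RORgt-Tbet-KO. Centring on gene-end peaks gave 1 in RORgt-KO against Control and 1 in RORgt-RORa-KO against RORgt-KO. Centring on the ribosomal protein peaks, chosen after seeing the data, gave 1, 3 and 7 against Control, and 1 and 0 in the last 2 contrasts. Log2 of RPM plus 1 gave 1 in RORgt-RORa-KO against RORgt-KO. With all peaks within 5 kb of a ribosomal protein gene, whichever gene was nearest, the F test called 9, the contrasts with Control 8 in RORgt-Tbet-KO and 17 in RORgt-RORa-KO, and RORgt-RORa-KO against RORgt-Tbet-KO 2. With only gene-end members the F test called 2, RORgt-KO against Control 1 and the last 2 contrasts 0 and 0. The cause of these shifts was not tested, apart from the last 2 settings, which count over more or fewer peaks.

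With the replicate number as a block, the F test called 10 and the contrasts 2, 9, 12, 0, 2 and 1. Over 13 same-numbered pairs, the correlations of deviations from the group means were -0.121 to 0.143. Of 10 libraries, 3 correlated best with their own number. In groups of 2 libraries the deviations mirror each other, so these correlations are not independent. The labels do not say whether a number marks a shared day or litter, and this check cannot decide it.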
